A study of Mus musculus with 6 samples.

Results

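Crypt antimicrobial proteins are secreted or surface-bound defence proteins of the intestinal epithelium, and 10 genes that encode them were followed here, each found by its exact symbol among the 29940 genes of the deposited table. They are Ang4, Ang, Lyz1, Pla2g2a, Reg3b, Reg3g, Reg4, Retnlb, Lypd8 and Pglyrp1, each present in 1 row. The samples were large-intestine organoids of C57BL/6J mice, an inbred strain with no genetic change named in the labels, started from crypts in Matrigel. They grew for 2 days and then spent 24 hours untreated (Ctrl, 3 libraries) or with tumour necrosis factor alpha (TNF, 3 libraries), an inflammatory cytokine for which the labels give no dose. Such organoids are grown from epithelial crypts, and low levels of macrophage and collagen RNA were present in these libraries. The labels do not say whether the 3 libraries of a group stand for separate animals or cultures. The p-values therefore measure only the spread between these libraries, which may be technical.

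In the gut, many antimicrobial proteins are made by secretory cells at the crypt base and by goblet cells, and some, such as Lypd8, by enterocytes. These proteins keep bacteria away from the epithelial surface. They act in different ways: lysozyme and peptidoglycan recognition proteins attack the bacterial wall, phospholipase A2 and some C-type lectins attack membranes, and Lypd8 binds flagella. Paneth cells, the main source in the small intestine, are normally absent from the mouse colon, where Reg4-expressing deep crypt secretory cells take their place beside the stem cells.

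The set did not move as a block. With TNF the ribonuclease gene Ang4, the peptidoglycan-binding gene Pglyrp1, the flagella-binding gene Lypd8 and the low-level phospholipase gene Pla2g2a rose, and the lectin gene Reg4 and the goblet cell gene Retnlb fell. Ang and Lyz1 did not pass the test, and Reg3g and Reg3b lay below the level needed for testing. Levels are in FPKM, fragments per kilobase of exon scaled to the fragments of the library, so they may be compared between genes. Testing was done on log2(FPKM + 1) for the 12350 genes whose mean reached 1 FPKM, by limma with Benjamini-Hochberg adjustment over all of them. Of the 10 genes, 4 were higher and 2 lower in TNF at an adjusted p below 0.05. Among all tested genes the same rule called 12.9% higher and 11.1% lower, and 24% in either direction. The 3 TNF values lay wholly above or below the 3 Ctrl values in 6 of the 8 tested antimicrobial genes, against 41.4% of all tested genes. Pla2g2a is in both counts although it reached the test only through its TNF values (Ctrl mean 0.937 FPKM), so the counts describe the genes and are not read against these shares.

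**Figure D1:**
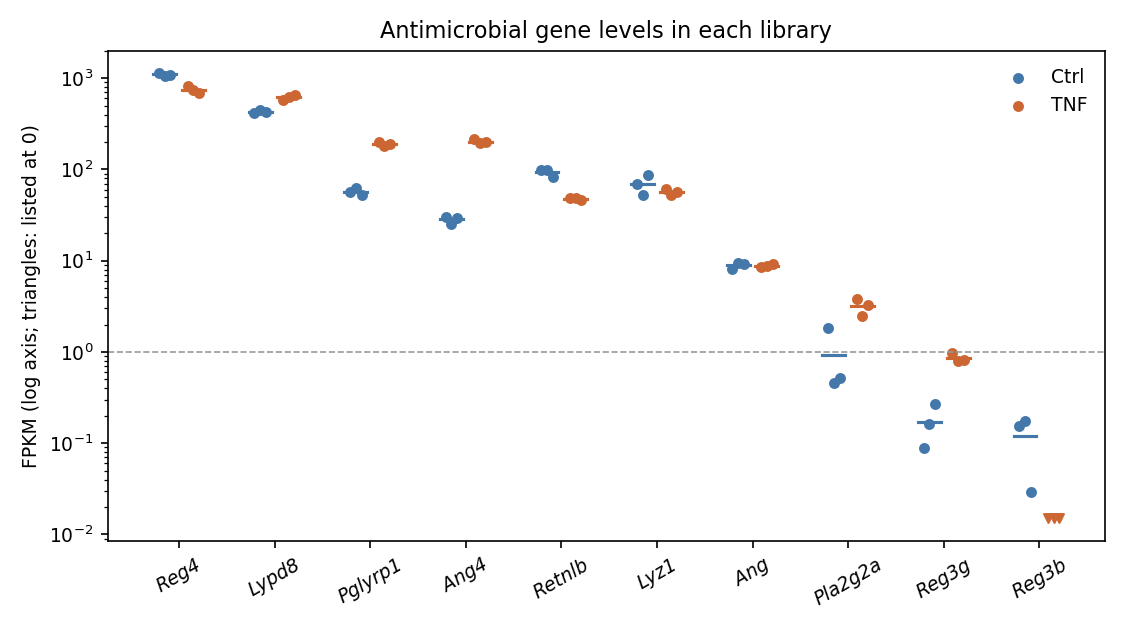
FPKM of the 10 antimicrobial genes (log axis) in each of the 3 Ctrl and 3 TNF libraries, with short lines at the group means, triangles for values listed at 0 and a dashed line at 1 FPKM. Ang4 and Pglyrp1 stand higher in TNF with no overlap between groups, Reg4 and Retnlb stand lower, and Ang and Lyz1 overlap.

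Ang4 encodes a ribonuclease of the RNase A family with microbicidal activity, made by mouse Paneth and goblet cells. It lies on chromosome 14 (51763878 to 51773590 in GRCm38, minus strand) as a gene of 2 exons. Its level was 30.5, 25.4 and 29.1 FPKM in the Ctrl libraries and 214.2, 193.4 and 199.8 FPKM in the TNF libraries. Every TNF value exceeded the highest Ctrl value several times over. The means were 28.3 ± 2.64 and 202.5 ± 10.6 FPKM (SD, n = 3 each), a ratio of 7.15, and limma gave a log2 change of 2.80 (SE 0.07, adjusted p = 7.34e-07). By size of rise Ang4 was at rank 8 of the 12350 tested genes. Its rank by level among all 29940 genes moved from 1593 in Ctrl to 144 in TNF.

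Ang encodes angiogenin, a related ribonuclease best known for promoting blood vessel growth, and lies on the same chromosome (51091150 to 51102009, plus strand). It stood at 8.16, 9.35 and 9.30 FPKM in Ctrl and at 8.44, 8.80 and 9.25 FPKM in TNF. The groups overlapped, and the log2 change was -0.01 (95% interval -0.16 to 0.13, limma adjusted p = 0.893). The interval covers only the spread between libraries, and the deposited Ang values showed no change of the size seen in Ang4. The log2 ratio of Ang4 to Ang rose from 1.56 ± 0.216 to 4.37 ± 0.121 (SD, n = 3 each), and the difference of 2.81 had an exact two-sided permutation p of 0.1, the smallest that 3 against 3 libraries allow. Ang4 and Ang transcripts share no identical stretch longer than 31 bases and no window of 50 bases. Exons of Ang and Rnase4 overlap over 219 bases, and Rnase4 stood far higher (Ctrl mean 75.2 FPKM). An unknown part of the Ang value can therefore come from Rnase4. The Ang interval and the Ang4 to Ang ratio do not bound the change of Ang transcripts alone.

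Other ribonuclease A genes in the table differed from each other in direction. Rnase4 stood at 71.9, 74.4 and 79.3 FPKM in Ctrl and fell to 63.9, 63.3 and 66.3 FPKM in TNF (log2 change -0.22, limma adjusted p = 0.0143). Rnase1, which encodes the pancreatic-type ribonuclease, rose from 5.32 ± 1.66 to 16.5 ± 1.71 FPKM (limma adjusted p = 0.00104).

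Pglyrp1 encodes a peptidoglycan recognition protein that kills bacteria and is abundant in neutrophil granules; in the gut it is also a gene of M cells, which pass luminal antigens to lymphoid tissue. It lies on chromosome 7 (18871331 to 18890459, plus strand). It measured 56.1, 62.0 and 52.3 FPKM in Ctrl and 201.0, 182.8 and 190.5 FPKM in TNF. The groups were far apart and each was tight, with coefficients of variation of 8.61% and 4.78%. The ratio of means was 3.37, and the log2 change of 1.74 (SE 0.07, limma adjusted p = 4.62e-06) ranked 35 among the rises of all tested genes. Of its relatives in the table, Pglyrp2 stayed at or below 0.149 FPKM in every library and Pglyrp4 at or below 0.0286 FPKM.

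Several genes listed as M cell markers moved in the same libraries as Pglyrp1. Of 6 tested M cell genes 5 rose, none fell and 1 did not pass, and their median log2 change was 0.79 against -0.0010 for all tested genes. The RANK receptor gene Tnfrsf11a rose from 11.5 ± 0.279 to 20.2 ± 0.907 FPKM, the chemokine gene Ccl20 from 1.91 ± 0.375 to 9.88 ± 0.483 FPKM, Marcksl1 from 26.0 ± 0.714 to 38.0 ± 1.10 FPKM and Anxa5 from 30.7 ± 3.48 to 55.0 ± 1.22 FPKM. Of 9 listed M cell genes 8 had values, and Gp2 had none. Spib and Sox8 were too low for testing, with means of 0.178 and 0.0578 FPKM in Ctrl and 0.752 and 0.319 FPKM in TNF. The summed level of the 8 genes was 73.0 to 77.9 FPKM in Ctrl and 132.9 to 134.8 FPKM in TNF. Anxa5 and Marcksl1 were its largest members. The part of these genes in the Pglyrp1 result was not tested. In bulk RNA, more cells of a type, more RNA per cell and a rise of the same genes in other epithelial cells cannot be told apart. The rises are therefore not read as M cells. Of 8 listed neutrophil genes 5 had values, and S100a8, S100a9 and Elane had none. Those other than Ly6g were close to 0, with Mpo, Cxcr2, Ngp and Csf3r at no more than 0.432 FPKM in any library. Ly6g itself rose from 17.2 ± 2.91 to 27.0 ± 1.19 FPKM (limma adjusted p = 0.00515).

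The 250 bases before the RefSeq start of 5 genes are printed. They set 3 genes with higher values in TNF beside a gene with no detected change and a gene that fell. Of the 3, Reg3g lay below the level needed for testing, and Lypd8, which also rose, is not printed. Capitals mark matches to any of 5 motifs, searched on both strands: the NF-κB consensus, TTCNNNGAA of STAT factors, TGANTCA of AP-1, GAAA, any 2 bases and GAAA again of IRF factors and the TATA box TATAAA. The sequences are from RefSeq on GRCm38.p6, which gave a window for 8 of the 10 genes, and are written 5′ to 3′ on the strand of the gene. For Pglyrp1 the RefSeq start lies within the GENCODE span given above, part of whose transcripts begin farther upstream, and 10 bases of its window are GENCODE exon.
Ang4, chr14:51773591-51773840, minus strand: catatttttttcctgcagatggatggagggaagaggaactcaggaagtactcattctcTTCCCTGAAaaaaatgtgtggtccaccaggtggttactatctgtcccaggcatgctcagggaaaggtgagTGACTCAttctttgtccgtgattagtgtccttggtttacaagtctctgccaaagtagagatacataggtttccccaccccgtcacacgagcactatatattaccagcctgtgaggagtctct
Pglyrp1, chr7:18884440-18884689, plus strand: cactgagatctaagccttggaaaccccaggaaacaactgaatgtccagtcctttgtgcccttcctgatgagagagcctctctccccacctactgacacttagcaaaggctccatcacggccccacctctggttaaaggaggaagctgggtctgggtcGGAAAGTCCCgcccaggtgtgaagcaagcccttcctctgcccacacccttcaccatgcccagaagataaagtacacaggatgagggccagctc
Reg3g, chr6:78468875-78469124, minus strand: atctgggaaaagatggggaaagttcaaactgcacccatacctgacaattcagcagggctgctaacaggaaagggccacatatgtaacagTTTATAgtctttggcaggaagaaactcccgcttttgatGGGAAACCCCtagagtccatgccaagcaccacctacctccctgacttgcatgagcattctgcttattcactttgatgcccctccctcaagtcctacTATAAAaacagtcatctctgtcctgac
Ang, chr14:51090827-51091076, plus strand: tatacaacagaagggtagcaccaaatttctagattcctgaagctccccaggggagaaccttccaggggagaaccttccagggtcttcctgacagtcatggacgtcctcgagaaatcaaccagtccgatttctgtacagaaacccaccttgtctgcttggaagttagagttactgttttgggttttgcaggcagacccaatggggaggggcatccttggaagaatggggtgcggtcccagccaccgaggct
Reg4, chr3:98221906-98222155, plus strand: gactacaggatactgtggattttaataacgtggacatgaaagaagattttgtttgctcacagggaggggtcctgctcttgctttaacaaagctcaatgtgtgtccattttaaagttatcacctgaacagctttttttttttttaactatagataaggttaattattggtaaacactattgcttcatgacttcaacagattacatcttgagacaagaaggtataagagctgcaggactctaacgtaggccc

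Pglyrp1 had an NF-κB consensus match 93 to 84 bases before its RefSeq start, and Reg3g had its match at 123 to 114 bases. Such a match was present in 7.25% of all 32851 windows of this length. Ang4 had no match to the NF-κB consensus here but a STAT match at 192 to 184 bases and an AP-1 match at 122 to 116 bases, motifs found in 7.02% and 6.75% of all windows. Reg3g also held TATAAA on the gene's strand at 27 to 22 bases and on the other strand at 161 to 156 bases, against 12.4% of windows with a match. Reg3b, listed at 0 with TNF, also had a STAT match, at 129 to 121 bases, and TATAAA at 29 to 24 bases; 74 bases of its window are GENCODE exon. The windows of Ang, Reg4, Lyz1 and Lypd8 held no match to any of the 5 motifs, although Lypd8 rose with TNF. The 5 printed genes therefore do not show whether matches go with the change. A match describes the letters of this window and was not tested against binding.

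**Figure D2:**
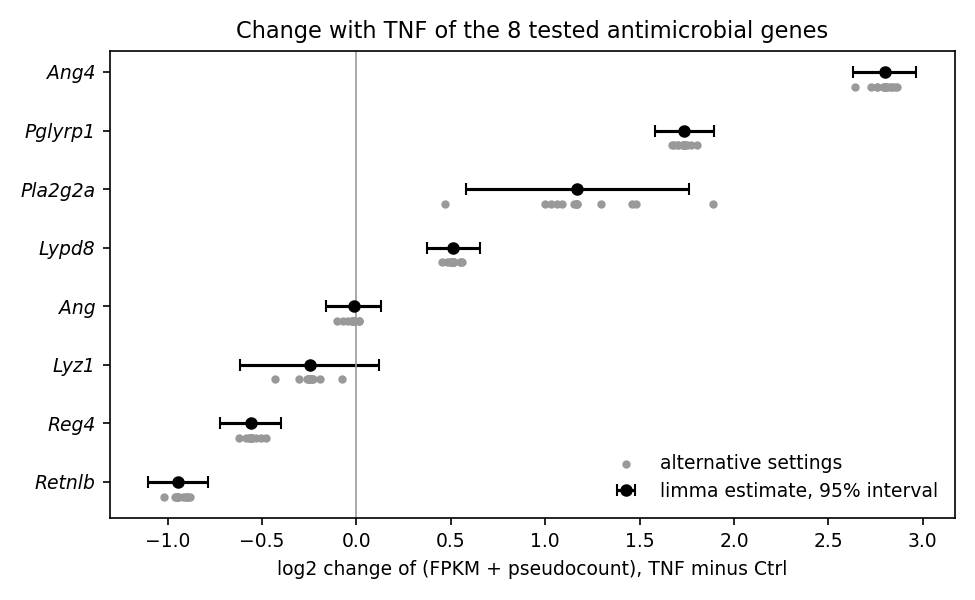
Log2 change with TNF (x axis, TNF minus Ctrl) of the 8 tested antimicrobial genes, as black points with 95% limma intervals, and the values under the alternative settings as grey points below. Ang4 at 2.80 and Pglyrp1 at 1.74 lie highest, Retnlb at -0.94 lies lowest, and the intervals of Ang and Lyz1 include 0.

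Lyz1 encodes lysozyme P, the Paneth cell enzyme that cleaves peptidoglycan (chromosome 10, 117287797 to 117292868, minus strand). It measured 69.3, 52.2 and 86.0 FPKM in Ctrl and 61.4, 52.6 and 57.1 FPKM in TNF. The Ctrl values spread more widely (coefficient of variation 24.4%) than the TNF values (7.75%), and the groups overlapped. The log2 change was -0.25 (95% interval -0.62 to 0.12, limma adjusted p = 0.308). The answer depended on Ctrl 2, which had the lowest value: without it the log2 change was -0.43 and passed (limma adjusted p = 0.0265).

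Its close relative Lyz2, the macrophage-type lysozyme, varied in another way across libraries. In Ctrl 1 and TNF 3 Lyz2 had only 4.65 and 2.72 FPKM, against 15.6 to 16.0 FPKM in the other 4 libraries. Lyz1 was neither highest nor lowest of its group in those 2 libraries. The longest identical stretch between Lyz1 and Lyz2 transcripts was 118 bases, and 16.1% of Lyz1 windows of 50 bases also occur in Lyz2, so reads there could have been assigned to either gene. Summed, the 2 genes gave 74.0, 68.2 and 101.6 FPKM in Ctrl and 77.2, 68.3 and 59.8 FPKM in TNF. The log2 ratio of Lyz1 to Lyz2 was 2.56 ± 1.01 in Ctrl and 2.52 ± 1.26 in TNF (SD, n = 3 each, exact two-sided permutation p = 1), and the sign of the difference changed when Ctrl 1, TNF 1 or TNF 2 was left out (0.50, 0.27 and 0.38) or with a pseudocount of 0.1 (0.0073). The macrophage receptor gene Csf1r, named after its values were seen, was also lowest in Ctrl 1 and TNF 3 (0.203 FPKM in each, against 0.779 to 0.921 FPKM elsewhere). Adgre1, C1qa, C1qb, C1qc and Fcer1g were likewise the lowest of their group in both libraries. Cd68, Mrc1, Ptprc, Tyrobp and Cx3cr1 were not lowest in both. Over 12 macrophage genes the summed level was 20.4 to 39.4 FPKM in Ctrl and 16.1 to 40.4 FPKM in TNF, and none of them was at 0 in all libraries. Lyz2 is itself 1 of the 12 and a large part of the sum, so the sum is not separate from the Lyz2 values. Of 5 tested, Mrc1, the mannose receptor gene, rose from 1.36 ± 0.0190 to 2.54 ± 0.551 FPKM (limma adjusted p = 0.00909) and none fell. The part of macrophage RNA in the lysozyme values was not tested. With Ctrl 1 and TNF 3 both left out, the 6 calls among the antimicrobial genes were as before, with log2 changes of 2.86 for Ang4, 1.73 for Pglyrp1, 1.46 for Pla2g2a, 0.46 for Lypd8, -0.48 for Reg4 and -0.88 for Retnlb (limma adjusted p from 0.000182 to 0.0299).

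**Figure D3:**
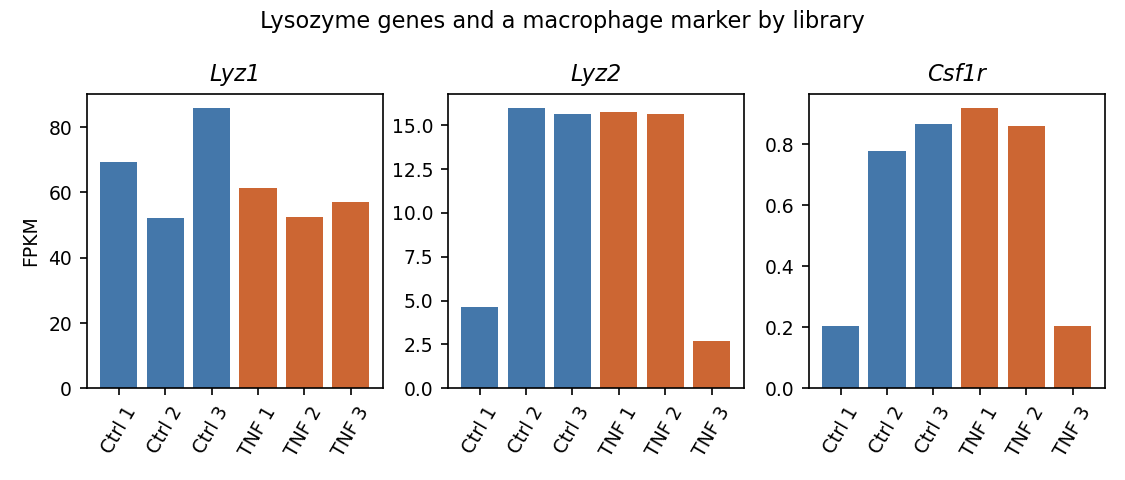
FPKM (y axis, from 0) of Lyz1, Lyz2 and the macrophage gene Csf1r in each library, Ctrl in blue and TNF in orange. Lyz2 and Csf1r are low in Ctrl 1 and TNF 3, while Lyz1 stands at 69.3 and 57.1 FPKM there.

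Pla2g2a encodes a secreted phospholipase A2 that attacks bacterial membranes and is made by Paneth cells. C57BL/6 mice are known to carry a frameshift in it, and the annotation lists it as a polymorphic pseudogene (chromosome 4, 138831857 to 138835186, plus strand). It was at 1.83, 0.457 and 0.523 FPKM in Ctrl and at 3.84, 2.48 and 3.25 FPKM in TNF. The groups did not overlap, although Ctrl 1 reached more than 3 times the other Ctrl values. These levels stand for about 25.9, 6.23 and 7.25 fragments in Ctrl and 49.9, 34.0 and 48.6 in TNF. Its log2 change was 1.17 (SE 0.25, limma adjusted p = 0.0139). The call was lost without TNF 1, where the change was 1.06 (adjusted p = 0.0529), and when no filter on level was applied, where it was still 1.17 (adjusted p = 0.0654). The change was 1.89 with a pseudocount of 0.1, where Pglyrp1 had 1.75, and 0.47 with a pseudocount of 5.

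Other phospholipase A2 genes of the table gave small changes. Pla2g5 rose from 1.48 ± 0.121 to 2.36 ± 0.245 FPKM, while Pla2g10 fell from 12.7 ± 0.570 to 9.80 ± 0.333 FPKM and the cytosolic Pla2g4a from 19.1 ± 0.425 to 16.6 ± 0.993 FPKM, with limma adjusted p-values of 0.00823, 0.00242 and 0.0310. For Pla2g12a the means were 3.48 ± 0.522 and 2.93 ± 0.157 FPKM (limma adjusted p = 0.211).

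Reg4 encodes a C-type lectin and marks the deep crypt secretory cells of the mouse colon (chromosome 3, 98222156 to 98236748, plus strand). It was the most abundant of the 10 genes in both groups. The Ctrl libraries held 1141, 1064 and 1098 FPKM and the TNF libraries 812, 739 and 693 FPKM. All TNF values lay below all Ctrl values. The mean fell from 1101 ± 38.3 to 748 ± 59.9 FPKM, which limma gave as -0.56 on the log2 scale (SE 0.07, adjusted p = 0.00102). Even so, its rank by level among all genes moved only from 25 to 35.

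Of 8 other deep crypt secretory and Paneth cell genes tested, 1 rose, none fell and 7 did not pass, with a median log2 change of 0.10. The one that rose was Mmp7, whose protease activates defensins in Paneth cells, from 2.00 ± 0.560 to 6.80 ± 0.784 FPKM (limma adjusted p = 0.000378). The receptor gene Kit, a marker of the cells that express Reg4, was at 10.1 ± 0.930 and 11.3 ± 0.643 FPKM (limma adjusted p = 0.181). It was named after its values were seen. Of 10 listed genes 9 had values, and their summed level was 221.9 to 244.0 FPKM in Ctrl and 254.6 to 271.5 FPKM in TNF. Most of that sum was Cd24a, at 186.6 ± 9.51 and 209.4 ± 8.26 FPKM, which did not pass (limma adjusted p = 0.0588). Cd24a was named after its values were seen.

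Reg3g and Reg3b encode lectins that bind bacterial surfaces, Reg3g being known for killing Gram-positive bacteria, and both lie on chromosome 6 (78466269 to 78468872, minus strand, and 78370657 to 78373466, plus strand). Reg3g was at 0.0883, 0.161 and 0.266 FPKM in Ctrl and at 0.979, 0.799 and 0.818 FPKM in TNF. Its groups did not overlap, and its 6 values stayed below 1 FPKM. They stand for about 2.85, 5.00 and 8.40 fragments in Ctrl and 29.0, 24.96 and 27.8 fragments in TNF. From the rounded group totals of 16 and 82 fragments the ratio was 5.13, with an exact 95% interval of 2.98 to 9.39 that covers counting error only. When all genes were tested without a filter, Reg3g passed (log2 change 0.67, SE 0.08, limma adjusted p = 0.00702).

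Reg3b was at 0.156, 0.175 and 0.0293 FPKM in Ctrl and was listed at 0 in all 3 TNF libraries. The Ctrl values stand for about 2.54, 2.74 and 0.466 fragments, 5.74 in all, against none in TNF. By this estimate each library was under the 3 fragments that a count of 0 allows in a library (0.175 to 0.201 FPKM). A value of 0.466 is not a whole fragment, so the estimate is inexact for this gene and may be too low. No fold is given. The groups did not overlap (exact two-sided permutation p = 0.1, the smallest possible), and without a filter Reg3b did not pass (limma adjusted p = 0.134). The log2 ratio of Reg3g to Reg3b was higher in TNF by 0.83 with a pseudocount of 1 (exact two-sided permutation p = 0.1), by 2.94 with a pseudocount of 0.1 and by 0.22 with a pseudocount of 5. Reg3b and Reg3g transcripts share no identical stretch longer than 35 bases. Of the other Reg genes, Reg1 was at or below 0.0196 FPKM in every library.

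Retnlb encodes RELMβ, a goblet cell protein with bactericidal activity (chromosome 16, 48816856 to 48818892, plus strand). It was at 98.5, 98.4 and 83.5 FPKM in Ctrl and at 49.1, 48.4 and 46.5 FPKM in TNF. No TNF value came near the lowest Ctrl value, and the TNF libraries differed by a coefficient of variation of only 2.82%. The log2 change was -0.94 (SE 0.07, limma adjusted p = 7.69e-05), at rank 77 among the falls of all tested genes. The related genes Retn and Retnla were at no more than 0.536 FPKM in any library.

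Goblet cell genes did not fall together with Retnlb. Of 12 tested, 5 rose and 3 fell, 4 missing the threshold, with a median log2 change of 0.12. The mucus protein gene Fcgbp fell from 408.4 ± 21.6 to 267.2 ± 18.1 FPKM and the kallikrein gene Klk1 from 137.8 ± 4.28 to 108.4 ± 2.27 FPKM. Agr2, which assists mucin folding, rose from 263.2 ± 12.01 to 354.0 ± 13.7 FPKM, and Atoh1, the transcription factor of the secretory lineage, from 16.9 ± 1.62 to 22.7 ± 1.43 FPKM. The summed level of the 12 genes was 1607 to 1648 FPKM in Ctrl and 1600 to 1670 FPKM in TNF.

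Lypd8 encodes a membrane-anchored protein of colon enterocytes that binds flagella and keeps motile bacteria from the epithelium (chromosome 11, 58379043 to 58390728, plus strand). It was at 417.5, 452.8 and 423.0 FPKM in Ctrl and at 577.7, 623.8 and 647.6 FPKM in TNF. The groups did not overlap, and the rise was modest, with a ratio of means of 1.43 (limma log2 change 0.51, SE 0.06, adjusted p = 0.000776). Of 10 colonocyte genes tested in the same libraries, 6 fell, 2 rose and 2 did not pass, with a median log2 change of -0.53. Cyp2c55, a cytochrome P450 gene, went down from 890.0 ± 44.2 to 409.6 ± 24.8 FPKM, the chloride exchanger gene Slc26a3 from 41.3 ± 3.47 to 21.6 ± 1.55 FPKM and the carbonic anhydrase gene Car1 from 1492 ± 156.7 to 840.4 ± 13.2 FPKM, while Guca2a rose from 211.1 ± 11.5 to 333.1 ± 13.3 FPKM. The summed level of these 10 genes was 2611 to 3067 FPKM in Ctrl and 1761 to 1836 FPKM in TNF.

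The order of the 10 genes by level changed with treatment. In Ctrl it was Reg4, Lypd8, Retnlb, Lyz1, Pglyrp1, Ang4, Ang, Pla2g2a, Reg3g and Reg3b. The ranges of Retnlb and Lyz1, of Lyz1 and Pglyrp1 and of Reg3g and Reg3b overlapped, and the other neighbours were separate. In TNF, Ang4 and Pglyrp1 stood above Lyz1 and Retnlb, with overlapping ranges of their own, and the other neighbours were separate. Reg4 exceeded Lypd8 by 2.55 times in Ctrl and by 1.21 times in TNF. All 10 genes are short, with 696 to 2114 bases of exon against a median of 3962 bases for all tested genes.

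The summed level changed less than the make-up. The 10 genes together gave 1790 ± 29.6 FPKM in Ctrl and 1876 ± 45.5 FPKM in TNF (SD, n = 3 each), which is 0.537% and 0.568% of all FPKM. Within that sum Reg4 went from 61.5% ± 1.15 to 39.8% ± 2.29, and Lypd8 from 24.1% ± 1.41 to 32.9% ± 2.63. Ang4 went from 1.58% ± 0.126 to 10.8% ± 0.332 and Pglyrp1 from 3.18% ± 0.301 to 10.2% ± 0.292. Retnlb went from 5.22% ± 0.471 to 2.56% ± 0.0510. These shares follow from the levels above and add no separate test.

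**Figure D4:**
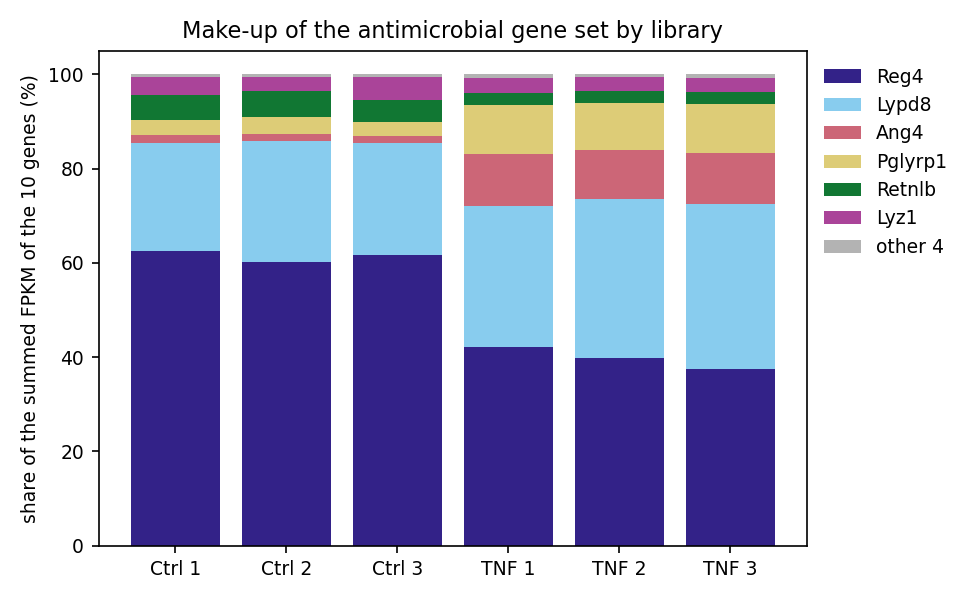
Share of each gene (y axis, percent) in the summed FPKM of the 10 antimicrobial genes, for each library. Reg4 holds 60.3% to 62.6% in the Ctrl libraries and 37.5% to 42.1% in the TNF libraries, and Ang4 and Pglyrp1 hold 9.87% to 11.1% each in the TNF libraries.

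Tested antimicrobial genes outside the set had no common direction. Of 21 listed genes 18 had values, some of them too low for testing. Among 11 tested there were 2 that rose and 3 that fell, and 6 did not pass, with a median log2 change of -0.20. Nos2, the inducible nitric oxide synthase, rose from 3.49 ± 0.549 to 56.4 ± 5.20 FPKM. The scavenger receptor gene Dmbt1 fell from 731.9 ± 26.7 to 360.1 ± 15.9 FPKM, the lectin gene Lgals4 from 596.8 ± 31.1 to 509.0 ± 21.1 FPKM and Ccl28, an antimicrobial chemokine, from 39.1 ± 2.32 to 33.8 ± 0.791 FPKM. The other gene that rose was Pigr, the transporter of secretory antibodies (log2 change 0.17, limma adjusted p = 0.0416). It was named after its value was seen. Of the genes too low for testing, Lcn2 had means of 0.119 FPKM in Ctrl and 0.670 FPKM in TNF. Saa3 had 0.232 and 0.653 FPKM, and Saa1 had 0.977 and 0.439 FPKM. The groups of these genes did not overlap, while those of the other untested genes did. Lcn2, Saa3 and Saa1 were named after their values were seen.

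Genes of the cytokine, STAT and microbial signals that act on antimicrobial genes were also counted. Among 21 tested there were 7 that rose and 3 that fell, 11 missing the threshold, with a median log2 change of 0.11. The peptidoglycan sensor gene Nod2 rose from 0.779 ± 0.0568 to 3.44 ± 0.0664 FPKM, reaching the test only through its TNF values, Tlr2, a receptor for bacterial lipoproteins, from 2.43 ± 0.202 to 6.27 ± 0.340 FPKM and the interleukin-4 receptor gene Il4ra from 4.13 ± 0.230 to 6.58 ± 0.297 FPKM. The intestinal transcription factor gene Cdx2 fell from 87.1 ± 1.77 to 71.1 ± 3.06 FPKM. Genes of interleukin-22 signalling, a pathway that induces Reg3 genes in the gut, were named after their values were seen. Its receptor gene Il22ra1 had a log2 change of 0.14 (limma adjusted p = 0.342), Il10rb of 0.04 (limma adjusted p = 0.651) and Stat3 of 0.04 (limma adjusted p = 0.611), and Tyk2 had 0.23 and did not pass (limma adjusted p = 0.0555). The kinase gene Jak1 rose by 0.24 (limma adjusted p = 0.00367), and the feedback inhibitor gene Socs3 fell by 0.44 (limma adjusted p = 0.0236).

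Epithelial genes were far above those of stroma and macrophages in every library. The 7 epithelial genes Epcam, Cdh1, Krt8, Krt18, Krt19, Cldn3 and Vil1 summed to 3015 to 3289 FPKM in Ctrl and 3501 to 3754 FPKM in TNF. Of them 4 rose and 3 did not pass. The 6 fibroblast genes summed to 9.75 to 16.5 FPKM in Ctrl and 6.81 to 8.84 FPKM in TNF, 6 enteroendocrine genes to 138.8 to 150.7 FPKM and 98.8 to 105.4 FPKM, and 6 tuft cell genes to no more than 2.29 FPKM. Of these, 2 of 3 tested fibroblast genes and 3 of 5 tested enteroendocrine genes fell and none rose. Collagen genes Col1a1 and Col3a1 were the fibroblast genes that fell, and Chgb, Gcg and Pyy the enteroendocrine ones. The part of these cell types in the antimicrobial results was not tested. The libraries held about 14027700 to 16096400 sequenced fragments, as recovered from the deposited values, and 12254 to 12458 genes reached 1 FPKM.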

How the data were processed

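The deposited table gives 1 value per gene and library. Its name calls the values normalized counts; the unit was inferred from the values, since the sum over genes of value times exonic length lay between 9.59e+08 and 9.64e+08 in every library, near the total that FPKM gives, and the deposited values were treated as FPKM made by the authors. Per the submitters' processing notes, cutadapt (version 1.9) and FastQC were used and the build was GRCm38; the sources used here do not give the aligner, counting program, strandedness or handling of shared reads. Positions, biotypes and exonic lengths came from GENCODE M21 on GRCm38, in which 29862 gene IDs of the table were found.

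Values were analysed as log2(FPKM + 1), which understates changes of low genes, after a filter at a mean of 1 FPKM. The 2 groups were compared by limma (version 3.58.1, R 4.3.3) with a mean-dependent prior variance, two-sided, Benjamini-Hochberg adjusted, at a threshold of 0.05. The script was run on simulated data with independent libraries, which checks the code and not the error rate in these data. Single ratios were compared by exact permutation. Fragments behind a value were estimated from the commonest step among low values of single-exon genes of at least 300 bases; tests on counts were not run, since whole reads could not be recovered for nearly all genes. Intervals and floors cover counting error only.

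The members, lists and tests were chosen with earlier results of these data known. All 10 members are named, and from each list up to 4 members with the smallest adjusted p, with every paralog of a member in the table; further genes are marked as named after their values were seen, apart from the markers named to describe a cell type. Alternatives were 2 pseudocounts, 2 filters, 2 scalings, the replicate number as a block, leaving out each library, and leaving out Ctrl 1 and TNF 3 together. Listed genes that are not in the table were not analysed here.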

Additional observations from a re-analysis of the deposited data

How the results depend on the processing

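Ang4, Pglyrp1 and Lypd8 stayed higher and Reg4 and Retnlb stayed lower in TNF, with adjusted p under 0.05, in all 14 alternatives; their log2 changes ran from 2.64 to 2.86, 1.67 to 1.80, 0.46 to 0.56, -0.62 to -0.48 and -1.02 to -0.88. The count of antimicrobial genes called was 3 or 4 higher and 2 or 3 lower, but not always of the same genes. Without a filter Reg3g passed and Pla2g2a did not (limma adjusted p = 0.00702 and 0.0654). With the filter at a mean of 5 FPKM, Pla2g2a was not tested. The log2 change of Ang ran from -0.072 to 0.016 when single libraries were left out, turning to 0.016 without Ctrl 2, 0.013 without Ctrl 3 and 0.014 without TNF 1 (adjusted p 0.376 to 0.930 over the alternatives). Leaving out single libraries gave 1149 to 1430 higher and 913 to 1177 lower genes, against 1595 and 1374 with all libraries; the lowest count of lower genes came without Ctrl 1. Without both Ctrl 1 and TNF 3 it was 821 higher and 596 lower, with fewer samples. The log2 ratio of Lyz1 to Lyz2 differed by -0.76 to 0.50 when single libraries were left out and by 0.0073 with a pseudocount of 0.1, so no direction is given for it.

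Same-numbered Ctrl and TNF libraries did not deviate together (correlations of -0.0043, -0.10 and 0.0053 for numbers 1, 2 and 3), and not every library correlated best with its own number, so the numbers were not taken as pairs. With the replicate block, 1256 genes were higher and 1004 lower, 4 and 2 antimicrobial genes among them; the Ang4 to Ang ratio kept its difference of 2.81 with an exact p of 0.25, the smallest that 3 pairs allow. Depth limits Reg3b, Reg3g and Pla2g2a, which rest on few fragments.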
